A study of Mus musculus with 12 samples.

Results

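The response of mouse macrophages to apoA-I was compared between 2 genotypes by the difference of responses: the change with apoA-I in MyD88-null cells minus the change with apoA-I in C57BL/6 cells. It was computed within each of the 3 replicate numbers and used all 12 of the 12 arrays of the series, 3 in each of 4 groups, and 16733 genes. The cells were peritoneal macrophages elicited with thioglycollate in female mice aged 10 weeks, taken 96 h after the injection and loaded with cholesterol (10 µg/ml) overnight. All 4 groups stood in medium with polymyxin B (25 µg/ml), an antibiotic that binds bacterial lipopolysaccharide. The groups were C57BL/6 control, C57BL/6 with apoA-I (10 µg/ml), MyD88-/- control and MyD88-/- with apoA-I (10 µg/ml), each for 2 h. For the apoA-I samples of both genotypes the labels also give a preincubation of 30 min, and they list none for the controls. The labels give no source of the null strain, no littermate status and no pooling of animals, so p-values cover the spread of these samples only, part of which may be technical.

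MyD88 is the adaptor that joins receptors of the Toll-like and interleukin-1 families to the kinases that release NF-kappaB. NF-kappaB then enters the nucleus and switches on genes of 2 kinds among others: its own inhibitors, which close the loop, and secreted cytokines and chemokines. Toll-like receptors 3 and 4 can also signal through the adaptor TRIF, which leads to interferon beta and, through the interferon receptor, to interferon-stimulated genes. ApoA-I, the chief protein in high-density lipoprotein, takes up cholesterol that macrophages export.

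A level is the log2 of a probe's processed intensity minus the log2 of that array's 75th percentile, so a level of 0 equals the 75th percentile. A difference of responses has 2 parts that add up exactly: it is the genotype difference (null minus C57BL/6) in cells with apoA-I minus the genotype difference in control cells. Genes were called control-level where the control difference was at least 2 times the treated one in size, treated-level where the treated one was at least 2 times the control one, and both-level otherwise. No gene passed limma's adjusted threshold of 0.05 for the difference of responses (0% of 16733), with a lowest adjusted p of 0.0818 and 1232 genes at an unadjusted p under 0.05. Without the replicate block, 0 genes passed as well, the lowest adjusted p was 0.17 and 196 genes had an unadjusted p under 0.05. Each difference of responses below is therefore a measured value that did not pass, while the genotype differences and the responses it is made of have tests of their own, across the same arrays.

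Among unadjusted p-values under 0.05, 1083 genes (6.47%) had the larger response in null cells and 149 (0.89%) in C57BL/6 cells. Scaling arrays to their median in place of the 75th percentile shifted the median over all genes from 0.05 to -0.34, and the share of genes larger in null cells then fell from 87.9% to 68.4%. The 3 within-replicate differences shared a positive sign in 22.6% of genes and a negative sign in 17.4%, and 962 genes (5.75%) and 146 genes (0.873%) met both criteria in the respective direction. The split by level differed between the directions. Of the 146 genes larger in C57BL/6 cells, 69 (47.3%) were treated-level, 31 (21.2%) control-level and 46 (31.5%) both-level. Of the 962 larger in null cells, 134 (13.9%) were treated-level, 256 (26.6%) control-level and 572 (59.5%) both-level. Over all 16733 genes, the corresponding shares were 26%, 27.6% and 46.4% of the genes with a negative difference, and 29.5%, 23.9% and 46.6% of those with a positive one. The difference between these splits was not tested. The counts move with single samples: without C57BL/6 control replicate 1 the control-level classes held 572 genes larger in null cells and 80 larger in C57BL/6 cells, and without null apoA-I replicate 3 the treated-level classes held 355 and 192.

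The genes with the larger response in null cells were mostly dim. The median level was -2.44 in the control-level class, -3.03 in the treated-level class and -3.13 in the both-level class, against -0.23 over all genes, and 299 of 572 both-level genes were well above background on every array, against 14130 of 16733 genes. Moving with this, 2 arrays stood apart: C57BL/6 control replicate 3, with a 75th percentile intensity of 1408 and 67.1% of probes well above background, and null apoA-I replicate 1, with 199.5 and 73.6%, where the other 10 arrays had 57.5% to 63.4%. Both enter the difference of responses with a positive sign. Without these 2 arrays, 757 genes larger in null cells and 153 larger in C57BL/6 cells had an unadjusted p under 0.05, and 0 genes passed the adjusted threshold. The part of these arrays in the counts was not tested further.

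**Figure D1:**
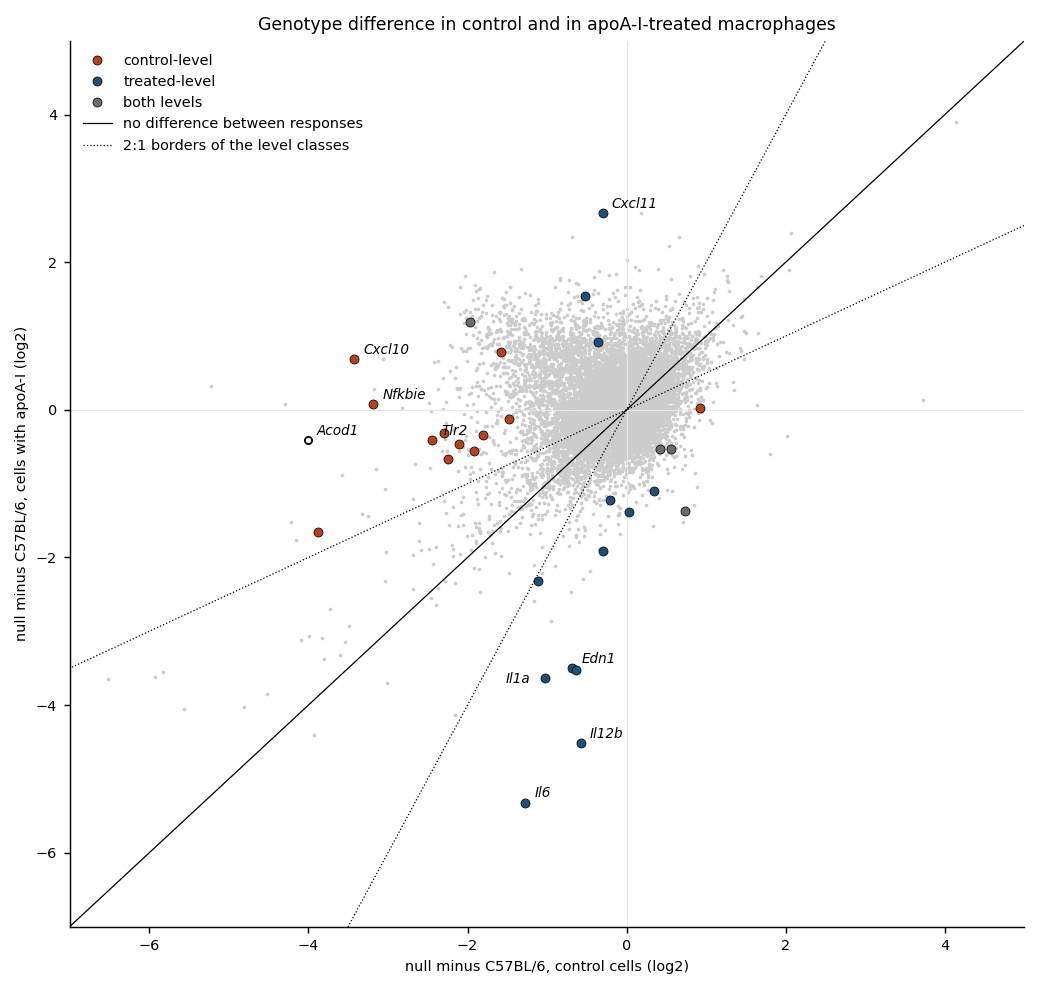
Genotype difference (null minus C57BL/6, log2) in control cells on the horizontal axis and in cells with apoA-I on the vertical axis, with all genes as grey dots, the 29 genes named for a low unadjusted p of the difference of responses in colour by level class, and Acod1 as an open circle. Genes on the solid line have a difference of responses of 0; Nfkbie and Cxcl10 lie far to the left with a small treated difference, Il6 and Il12b lie low with a smaller control difference, and 1 gene at 10.6 and 10.9 lies outside the axes.

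The control-level genes with a larger response in null cells included feedback inhibitors and partners of NF-kappaB. Nfkbie encodes the inhibitor IkappaB epsilon (probe at mm7 chromosome 17, 43692455 to 43692514). Its levels were 3.45, 3.44 and 3.21 in C57BL/6 controls, 4.60, 5.09 and 4.56 in C57BL/6 cells with apoA-I, -0.20, 1.05 and -0.29 in null controls, and 4.57, 5.34 and 4.58 in null cells with apoA-I. The null controls lay below every other sample, while the treated groups of both genotypes overlapped. Nfkbie was 9.08-fold lower in null controls (log2 -3.18, SE 0.23, adjusted p = 0.002) and differed by 0.08 with apoA-I (SE 0.23, adjusted p = 0.89). ApoA-I thus raised it 2.61-fold in C57BL/6 cells (adjusted p = 0.0178, or 0.192 without the block) and 25.1-fold in null cells (adjusted p = 4.03e-05). The difference of these responses was 3.26 (SE 0.326, n = 3 per group, unadjusted p = 5.72e-06, adjusted p = 0.0818), with 3.62, 2.63 and 3.53 in replicates 1, 2 and 3.

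Nfkbia, which encodes the inhibitor IkappaB alpha, had levels of 6.48, 5.65 and 6.06 in C57BL/6 controls and 3.27, 3.95 and 3.54 in null controls. With apoA-I they were 8.54, 8.11 and 8.17 in C57BL/6 cells and 9.28, 7.95 and 7.87 in null cells. Only the control groups were apart. The null controls were 5.57-fold lower (adjusted p = 0.0185), the treated groups differed by 0.10 (SE 0.341, adjusted p = 0.91), and the difference of responses was 2.57 (SE 0.482, adjusted p = 0.37). Relb, an NF-kappaB subunit, gave nearly the same difference of responses in each replicate, with 1.35, 1.34 and 1.34 (mean 1.34, SE 0.183, adjusted p = 0.167). It was 2.78-fold lower in null controls (adjusted p = 0.00224) and differed by -0.13 with apoA-I (adjusted p = 0.651). Bcl3, a nuclear protein of the inhibitor family, was 3.72-fold lower in null controls (adjusted p = 0.0114), and Tnip3, a partner of the ubiquitin-editing protein A20, 4.33-fold lower (adjusted p = 0.00893). With apoA-I these genes differed by -0.28 (adjusted p = 0.583) and -0.56 (adjusted p = 0.375).

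The promoters of 2 of these inhibitors are shown with those of Cxcl10 and Il6, described below, because their products or targets belong to NF-kappaB feedback and output and because they fall on both sides of the comparison. Each is the 250 bases before the RefSeq start (GRCm38.p6), 5′ to 3′ on the gene's strand, with matches to the kappaB motif and to the interferon response motif GAAANNGAAA on either strand in capitals.
Nfkbie (chr17:45555450-45555699, plus strand): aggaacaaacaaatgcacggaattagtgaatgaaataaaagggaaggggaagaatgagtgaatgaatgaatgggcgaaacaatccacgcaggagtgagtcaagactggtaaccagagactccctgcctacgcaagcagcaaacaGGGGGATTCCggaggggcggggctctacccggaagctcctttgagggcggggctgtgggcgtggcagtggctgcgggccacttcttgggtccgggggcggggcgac
Nfkbia (chr12:55492648-55492897, minus strand): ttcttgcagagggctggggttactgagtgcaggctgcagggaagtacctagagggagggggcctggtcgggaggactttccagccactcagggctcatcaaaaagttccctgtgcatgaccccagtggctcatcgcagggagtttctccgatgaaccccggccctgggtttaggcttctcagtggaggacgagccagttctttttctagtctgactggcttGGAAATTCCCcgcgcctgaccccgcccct
Cxcl10 (chr5:92348890-92349139, minus strand): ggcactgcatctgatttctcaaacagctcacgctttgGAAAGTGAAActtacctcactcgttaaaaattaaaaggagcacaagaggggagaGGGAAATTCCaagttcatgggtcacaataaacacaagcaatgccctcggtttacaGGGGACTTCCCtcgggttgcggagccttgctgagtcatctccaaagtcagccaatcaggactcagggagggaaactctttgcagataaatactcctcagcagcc
Il6 (chr5:30012864-30013113, plus strand): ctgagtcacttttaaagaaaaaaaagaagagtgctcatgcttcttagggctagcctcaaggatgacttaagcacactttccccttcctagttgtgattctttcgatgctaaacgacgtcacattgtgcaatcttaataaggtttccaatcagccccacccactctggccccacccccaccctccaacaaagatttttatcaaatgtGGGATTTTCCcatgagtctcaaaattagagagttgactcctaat

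A kappaB match began 106 bases before the start in Nfkbie, 29 bases before it in Nfkbia and 44 bases before it in Il6. Cxcl10 held 3 kappaB matches, at 159, 104 and 103 bases before the start, of which the last 2 overlap, and an interferon response match at 213. These matches describe the letters in the window only. Every promoter shown holds a kappaB match, but those of Bcl3 and Il12b, from the same groups, hold 0. Among genes named for a low p-value or as list members, 5 of 15 control-level promoters larger in null cells held one. Of 8 treated-level promoters larger in C57BL/6 cells, 1 did. Among genes at an unadjusted p under 0.05 with 3 differences of a sign, a kappaB match was held by 12 of the 159 control-level genes larger in null cells that matched a RefSeq promoter (7.55%) and by 4 of the 45 treated-level genes larger in C57BL/6 cells (8.89%). It was held by 944 of the 11158 measured genes with a promoter (8.46%). The interferon response motif was held by 6 of 159 (3.77%) and 2 of 45 (4.44%), against 2.79% of the measured genes, and the AP-1 motif TGANTCA by 18 of 159 (11.3%) and 6 of 45 (13.3%), against 4.92%.

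Over the whole list of 26 NF-kappaB family members, inhibitors and regulators, 9 had an unadjusted p under 0.05 with the larger response in null cells and 1 with the larger response in C57BL/6 cells, and 0 passed the adjusted threshold. Over all genes these shares were 6.47% and 0.89%, so that 87.9% of such genes were larger in null cells. The median difference of responses was 0.22, against 0.05 over all genes. This list and those below were chosen with earlier results of these data known. Their counts beside the shares over all genes therefore only describe the members chosen. In control cells, 9 of the 26 were lower in null cells at the adjusted threshold and 0 were higher, where 0.526% of all genes were lower and 0.0657% higher. With apoA-I, 2 of the 26 were lower and 0 higher, where 0.185% of all genes were lower and 0.0418% higher. Without the block, 2 of the 26 were lower in controls and 1 with apoA-I. Tnfaip3, which encodes A20 and was named after its values were seen, was lower in null controls by a log2 difference of -1.55 (adjusted p = 0.0431, or 0.228 without the block) and differed by -0.31 with apoA-I (adjusted p = 0.586).

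Among the chemokines, Cxcl10, Ccl2 and Ccl7 were control-level as well. Cxcl10, a ligand of the T cell receptor CXCR3, had levels of -1.08, 0.35 and 1.22 in C57BL/6 controls, 3.89, 3.72 and 3.83 in C57BL/6 cells with apoA-I, -4.46, -2.24 and -3.10 in null controls and 3.72, 5.04 and 4.72 in null cells with apoA-I. Null controls lay below C57BL/6 controls, and were well above background on 2 of 3 arrays. Cxcl10 rose 12.6-fold in C57BL/6 cells (adjusted p = 0.00478) and 217-fold in null cells (adjusted p = 6.86e-05). The difference of responses was 4.11 (SE 0.645, adjusted p = 0.235), of which the control difference gave -3.43 (adjusted p = 0.0168) and the treated difference 0.68 (adjusted p = 0.513).

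Ccl2, the main attractant of blood monocytes, had levels of 4.31, 5.81 and 5.03 in C57BL/6 controls and 0.44, 2.70 and 0.37 in null controls, and 7.08, 8.62 and 7.61 against 5.75, 6.84 and 5.75 with apoA-I. It was 14.7-fold lower in null controls (adjusted p = 0.002) and 3.16-fold lower with apoA-I, which did not pass (adjusted p = 0.0831). Its neighbour Ccl7, also a monocyte attractant, was 17.9-fold lower in null controls (adjusted p = 0.00224), and its treated difference was -1.76 (adjusted p = 0.124). The differences of responses were 2.22 (SE 0.403) for Ccl2 and 2.40 (SE 0.494) for Ccl7. The neutrophil attractant Cxcl2 was not well above background in null controls and was at least 22.5-fold lower there (adjusted p = 0.00224, or 0.0538 without the block) and 11.7-fold lower with apoA-I (adjusted p = 0.0421, or 0.806 without the block). Here and below, a fold written as "at least" means that no array of the lower group was well above background for that gene. Its difference of responses, 2.29, takes in those null control values and was -0.64 with normexp background correction and -0.11 with a common floor. In all, 5 of 22 measured chemokines had the larger response in null cells at an unadjusted p under 0.05 and 2 in C57BL/6 cells, with a list median of 0.19. Over all genes 6.47% and 0.89% did. In control cells 6 of the 22 were lower in null cells at the adjusted threshold, where 0.526% of all genes were, and 1 was without the block.

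Receptors, adhesion molecules and enzymes of activated macrophages added further control-level genes. Tlr2, a receptor for bacterial lipoproteins, had levels of 4.40, 4.30 and 4.31 in C57BL/6 controls and 1.18, 2.04 and 2.45 in null controls, and 5.43, 6.21 and 6.17 against 4.88, 5.68 and 6.00 with apoA-I. It was 5.45-fold lower in null controls (adjusted p = 0.00504), and the treated groups overlapped (difference -0.41, adjusted p = 0.475). Its response was 3.03-fold in C57BL/6 cells (adjusted p = 0.0133, or 0.127 without the block) and 12.4-fold in null cells (adjusted p = 0.000141). Acod1, which makes the antibacterial metabolite itaconate, had levels of 5.51, 4.51 and 4.42 in C57BL/6 controls, 0.04, 0.37 and 2.02 in null controls, and overlapping levels between 7.58 and 8.58 in the treated groups. It rose 11.5-fold in C57BL/6 cells and 139-fold in null cells (adjusted p = 0.0101 and 0.000182), a difference of 3.59 (SE 0.73, adjusted p = 0.407).

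Icam1, an adhesion molecule for leukocytes, was 3.49-fold lower in null controls (adjusted p = 0.00429), and Fas, a death receptor, 4.32-fold lower (adjusted p = 0.00224). Pde4b, a phosphodiesterase that degrades cyclic AMP, was 4.91-fold lower (adjusted p = 0.00536), and Olr1, a receptor for oxidised low-density lipoprotein, 11.9-fold lower (adjusted p = 0.0109), against null controls well above background on 1 of 3 arrays. Ehd1, which acts in endosome recycling, was 4.75-fold lower (adjusted p = 0.00224), and Ralgds, an activator of Ral GTPases, 3.79-fold lower (adjusted p = 0.002). With apoA-I none of these 6 genes passed between genotypes, and their treated differences ran from -0.31 for Pde4b to -0.89 for Olr1. Of the 46 measured inflammatory effectors, 12 had the larger response in null cells at an unadjusted p under 0.05 and 5 in C57BL/6 cells, where 6.47% and 0.89% of all genes did. In control cells 15 of the 46 were lower in null cells at the adjusted threshold, where 0.526% of all genes were, and with apoA-I 2 were, where 0.185% were. Without the block these counts were 3 and 1. As this list too was chosen with earlier results known, the counts only describe its members.

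Among the 22 control-level genes larger in null cells that were named for a low p-value or as list members, 20 were lower in null controls at the adjusted threshold and 0 passed between genotypes with apoA-I. The class rule itself makes the control difference the larger one, so these counts only describe the genes chosen. Null cells responded at the adjusted threshold in 22 and C57BL/6 cells in 16, where 3.45% of all genes rose and 0.61% fell in null cells, and 2.37% rose and 1.04% fell in C57BL/6 cells. The control calls rest on the replicate block: without it, 4 of the 22 genes kept an adjusted p under 0.05 in control cells, namely Nfkbie (0.0108), Ralgds (0.00199), Pde4b (0.0166) and Acod1 (0.0163), while the values of Nfkbia, Relb, Cxcl10 and Ccl2 became 0.0545, 0.101, 0.132 and 0.0953. Among the 16 genes whose control call was lost, the values ran from 0.0515 for Icam1 to 1 for Olfr368. The responses of these 22 genes passed without it in 7 for C57BL/6 cells and in 20 for null cells. Over all genes, the count called between control cells went from 99 to 16 without the block, and between treated cells from 38 to 11.

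**Figure D2:**
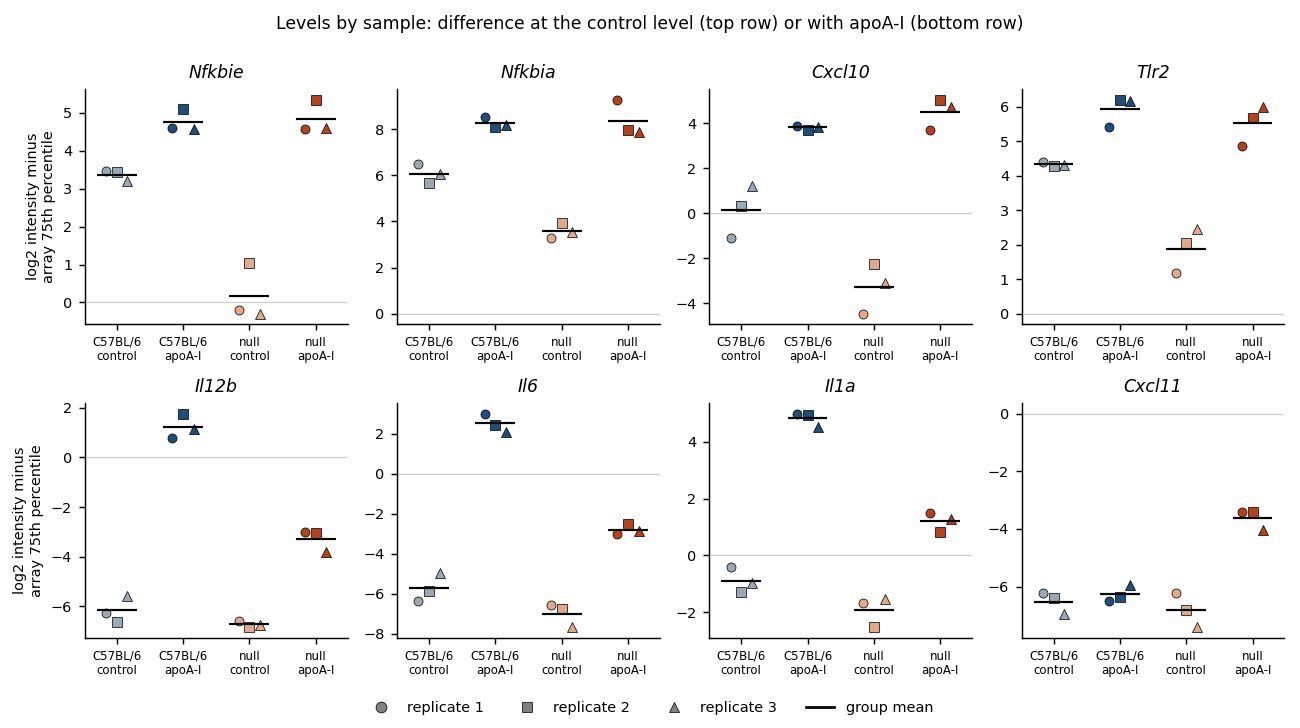
Level of 8 genes in every sample (log2 intensity minus the array's 75th percentile), by group, with a marker shape for each replicate number and a bar at the group mean. In the top row the null control group lies below the C57BL/6 control group and the treated groups are close, whereas in the bottom row the control groups are closer and the treated groups are apart, with Il12b, Il6 and Il1a lower and Cxcl11 higher in null cells.

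Of the 69 treated-level genes with the larger response in C57BL/6 cells, 13 are on the pathway lists, and 6 of these are secreted cytokines. Il6, a fever-inducing cytokine (mm7 chromosome 5, 29052734 to 29052793), had levels of -6.36, -5.89 and -4.95 in C57BL/6 controls and -6.58, -6.75 and -7.69 in null controls, above background on 1 of the 6 control arrays. With apoA-I the levels were 3.02, 2.45 and 2.12 in C57BL/6 cells and -3.01, -2.49 and -2.88 in null cells, so the treated groups were wide apart. Il6 was 40.1-fold lower in null cells with apoA-I (log2 -5.33, SE 0.436, adjusted p = 0.00387, and 0.00076 without the block). It rose in both genotypes, 308-fold in C57BL/6 cells, against controls above background on 1 of 3 arrays (adjusted p = 5.33e-05), and at least 4.4-fold in null cells (adjusted p = 0.0012). The difference of responses was -4.05 (SE 0.616, adjusted p = 0.226), with -5.82, -4.09 and -2.26 in replicates 1, 2 and 3, and it takes in control values that were mostly within background.

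Il12b, the p40 subunit of interleukins 12 and 23 (mm7 chromosome 11, 44370372 to 44370431), had levels of 0.79, 1.76 and 1.15 in C57BL/6 cells with apoA-I and -2.98, -3.05 and -3.81 in null cells with apoA-I. All 6 control arrays were not well above background, at -6.85 to -5.58. The treated difference was 22.9-fold (adjusted p = 0.00387), and the response was at least 65-fold in C57BL/6 cells and at least 3.14-fold in null cells (adjusted p = 3.8e-05 and 0.00128). The difference of responses was -3.94 (SE 0.511, adjusted p = 0.167), and it takes in control values that were within background.

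Il1a, which encodes interleukin-1 alpha (mm7 chromosome 2, 129041111 to 129041170), was above background on all 12 arrays. Its levels were -0.42, -1.28 and -0.98 in C57BL/6 controls, 5.00, 4.95 and 4.54 in C57BL/6 cells with apoA-I, -1.68, -2.54 and -1.52 in null controls and 1.49, 0.84 and 1.27 in null cells with apoA-I. Null samples lay lower under both treatments, by far the more with apoA-I. The treated difference was 12.4-fold (log2 -3.63, adjusted p = 0.00205) and the control difference 2.03-fold (adjusted p = 0.16), which made a difference of responses of -2.61 (SE 0.347, adjusted p = 0.167), with -2.25, -2.85 and -2.72 by replicate. Il1a rose 52.8-fold in C57BL/6 cells and 8.66-fold in null cells (adjusted p = 1.9e-05 and 0.000279).

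Csf2, the granulocyte-macrophage colony-stimulating factor, and Edn1, from which the vessel-constricting peptide endothelin-1 is made, were within background in both control groups. Csf2 had levels of 0.01, 0.80 and -0.14 in C57BL/6 cells with apoA-I and -2.27, -3.66 and -3.99 in null cells with apoA-I, an 11.5-fold difference (adjusted p = 0.0149). Edn1 had 0.56, 1.42 and 1.39 against -2.23, -2.52 and -2.40, an 11.3-fold difference (adjusted p = 0.0099). For both genes every treated null sample lay below every treated C57BL/6 sample. Il23a, the p19 subunit of interleukin 23, was 3.78-fold lower in treated null cells (adjusted p = 0.0407, or 0.998 without the block).

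On the probe used, Osm, oncostatin M of the interleukin-6 family, began at a similar level in both genotypes. A second Osm probe gave a control difference of -0.51 and a treated difference of -1.06. Its difference of responses was -0.55 (limma, unadjusted p = 0.129), against -1.41 on the probe used, to which the values below belong. In C57BL/6 controls Osm had levels of -0.85, -1.63 and -2.74, against -0.92, -1.61 and -2.62 in null controls, and 0.85, 0.34 and -1.01 against -0.89, -1.06 and -2.04 with apoA-I. The treated groups overlapped, but within each replicate number the treated null sample was the lower. Osm rose 3.48-fold in C57BL/6 cells (adjusted p = 0.00136, or 0.428 without the block), its null response was 1.31-fold (adjusted p = 0.212), and the treated difference was 2.61-fold (adjusted p = 0.0243, or 0.998 without the block). The macrophage chemokine Ccl3 was 5-fold lower in treated null cells (adjusted p = 0.00562, or 0.17 without the block) and 2.16-fold lower in null controls (adjusted p = 0.0736).

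The negative regulators Spry1 and Cish belong to the same class. Spry1, an inhibitor of receptor tyrosine kinase signalling, was 2.33-fold lower in treated null cells (adjusted p = 0.0487, or 0.998 without the block). Cish, an inhibitor of cytokine receptor signalling, had a treated difference of -2.59 (adjusted p = 0.0766) and did not share a sign in all 3 replicates. F3, tissue factor, the starter of blood clotting, was both-level: it rose 8.02-fold in C57BL/6 cells (adjusted p = 0.0016), its null response was 1.85-fold (adjusted p = 0.127), and the difference was -2.11 (SE 0.424, adjusted p = 0.388).

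Of the 24 measured cytokines, 6 had the larger response in C57BL/6 cells at an unadjusted p under 0.05, which were Il6, Il12b, Csf2, Il1a, Il23a and Osm, all treated-level. Ifnb1 alone had an unadjusted p under 0.05 in the other direction. Over all genes 0.89% had such a p with the larger response in C57BL/6 cells and 6.47% in null cells. The list's median difference of responses was -0.49, and 11 of the 24 were negative in all 3 replicates while 3 were positive, where 17.4% and 22.6% of all genes were. With apoA-I, 9 of the 24 were lower in null cells at the adjusted threshold, where 0.185% of all genes were, and in controls 3 were, where 0.526% were. Without the block these counts were 6 and 3. The cytokine list was likewise chosen with earlier results known, so its counts only describe the members. Tnf and Il1b, named after their values were seen, were lower in null cells under both treatments. Tnf, tumour necrosis factor, had differences of -4.09 (controls) and -3.12 (apoA-I) (adjusted p = 0.00207 and 0.0099, the latter 0.254 without the block), and Il1b, interleukin-1 beta, by -3.61 and -3.32 (adjusted p = 0.00224 and 0.00562). Their differences of responses were 0.97 (SE 0.438, adjusted p = 0.692) and 0.29 (SE 0.42, adjusted p = 0.913).

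**Figure D3:**
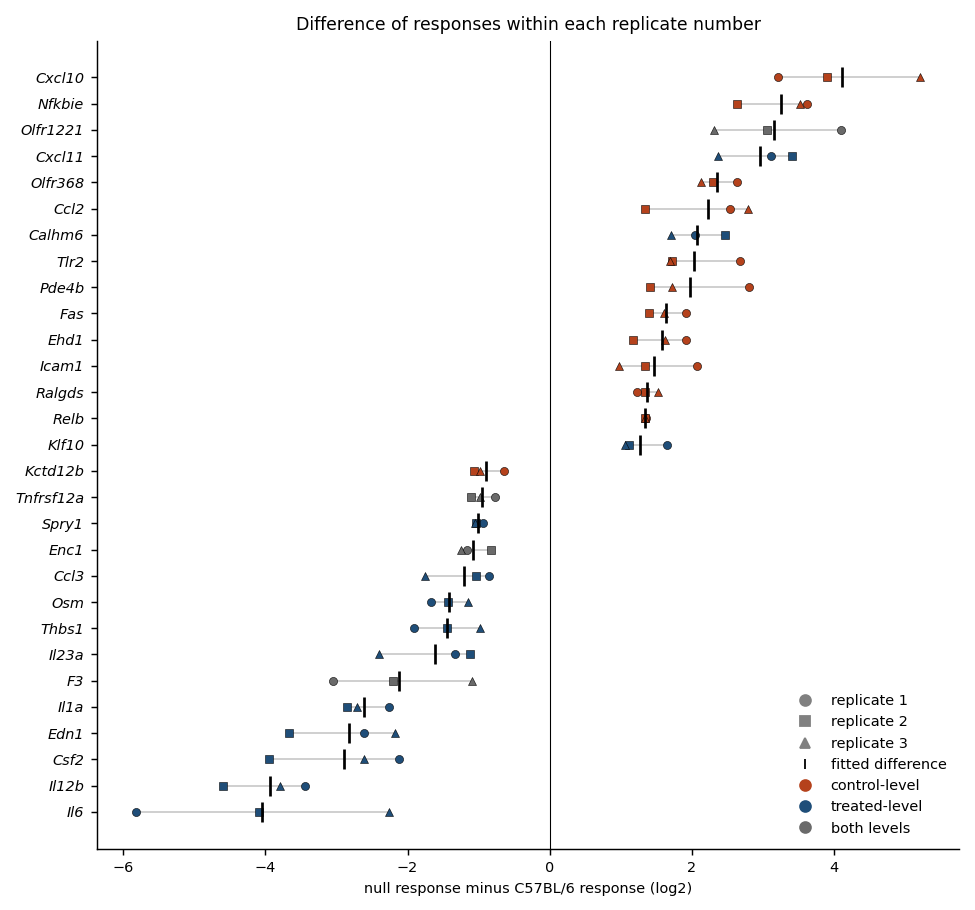
Difference of responses (null minus C57BL/6, log2) within replicates 1, 2 and 3 for the 29 genes named for a low unadjusted p, with the fitted difference as a vertical tick and colours for the level class. Below 0 the treated-level cytokines Il6 and Il12b lie farthest out, and the genes above 0 are mostly control-level, with the 3 replicates of Relb within 1.34 to 1.35 and those of Il6 between -5.82 and -2.26.

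Of the 134 treated-level genes with the larger response in null cells, Cxcl11, Calhm6 and Klf10 had the lowest p-values among those named. Cxcl11, another CXCR3 ligand, had levels of -3.40, -3.41 and -4.03 in null cells with apoA-I and was above background on all 3 of those arrays and on no other. It was at least 2.01-fold higher than in treated C57BL/6 cells (adjusted p = 0.0149). Its difference of responses was 2.96 (SE 0.418, adjusted p = 0.183), but 0.31 with a common floor and 0.67 with normexp background correction. Calhm6, an interferon-inducible membrane protein, had levels of -0.85, -0.60 and -0.89 in C57BL/6 cells and 0.67, 1.00 and 0.61 in null cells with apoA-I, which did not overlap. It rose 3.27-fold and 13.7-fold (adjusted p = 0.0111 and 0.000129), its treated difference was 1.54 (adjusted p = 0.0746), and its difference of responses was 2.07 (SE 0.36, adjusted p = 0.28). Klf10, a transcription factor induced by transforming growth factor beta, rose 2.35-fold in null cells (adjusted p = 0.00289, or 0.0805 without the block) and its C57BL/6 response was -0.04 (adjusted p = 0.931).

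Interferon-stimulated genes had a higher median difference of responses than all genes. Of 45 measured, 9 had an unadjusted p under 0.05, all larger in null cells. Over all genes 6.47% had such a p with the larger response in null cells and 0.89% in C57BL/6 cells, a share of 87.9% for null cells. A positive difference was seen in 37 of the 45, and in 9273 of 16733 genes. The median was 0.71 against 0.05 over all genes. By replicate the list median was 0.84, 0.99 and -0.03, against 0.14, 0.03 and -0.01 over all genes, so replicate 3 did not show it. Null cells passed the adjusted threshold for an increase in 25 of the 45 and C57BL/6 cells in 15, where 3.45% and 2.37% of all genes rose, and without the block these counts were 17 and 9. Irf1, a transcription factor of the interferon response, had levels of 4.77, 4.72 and 4.33 in C57BL/6 controls, 7.03, 7.07 and 6.35 with apoA-I, 3.84, 3.74 and 3.72 in null controls and 7.66, 7.57 and 6.79 in null cells with apoA-I. It rose 4.64-fold and 11.9-fold (adjusted p = 0.000623 and 4.03e-05), and the difference of 1.36 (SE 0.248, adjusted p = 0.347) came from both levels on this probe. A second Irf1 probe gave 0.72 (limma, unadjusted p = 0.18). Its control difference was -0.67 and its treated difference 0.05, which is control-level. Mx2, an antiviral GTPase, had differences of 2.60, 2.25 and 0.33 in replicates 1, 2 and 3, and Ifit1, which binds viral RNA, 3.59, 2.35 and 0.33. Ifnb1, interferon beta itself, was within background in both control groups and rose at least 20.7-fold in C57BL/6 cells and at least 47.8-fold in null cells (adjusted p = 0.00164 and 0.000126). Its treated levels, 1.39, -0.99 and -1.45 in C57BL/6 cells and 1.95, 0.24 and -0.24 in null cells, overlapped.

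The reverse layout, a larger response in C57BL/6 cells set by the control level, held 31 of the 146 genes (21.2%). Of all genes with a negative difference, 27.6% had it. In this class 5 genes were named, a number partly set by the naming rule, and 1 of them passed between control cells. Kctd12b had levels of 0.37, 0.35 and 1.16 in C57BL/6 controls, against 1.18, 1.48 and 1.98 in null controls. The control groups lay next to each other without overlap. It was 1.89-fold higher in null controls (adjusted p = 0.0408, or 1 without the block), and Gadd45a, a DNA damage response gene, had a control difference of 0.73 that did not pass (adjusted p = 0.18). Further Kctd12b probes gave smaller control differences of 0.57 and 0.25. Their differences of responses were -0.65 and -0.47 (limma, unadjusted p = 0.0705 and 0.248). The latter probe, with a treated difference of -0.22, was both-level. Atf3 and Ier5, immediate early genes, had differences of -0.81 and -0.65 and were both-level.

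Other pathways showed little. Over all genes, 6.47% had an unadjusted p under 0.05 with the larger response in null cells and 0.89% in C57BL/6 cells. Of 23 measured LXR targets and cholesterol efflux genes, 1 had an unadjusted p under 0.05, Arl4c, at 0.73, and the median was -0.01. Cholesterol synthesis genes had 0 of 26 at an unadjusted p under 0.05 and 0 at limma's adjusted threshold, with a median of -0.23. Of these, 21 of 26 were negative, as were 7460 of 16733 genes. The integrated stress, NRF2 and heat shock, hypoxia and cell cycle lists also had 0 genes at either threshold, with medians of -0.05, -0.14, -0.18 and 0.22. Among 28 immediate early genes, 0 were larger in null cells and 3 in C57BL/6 cells, with a median of 0.02, and among 22 negative regulators 2 and 2, with a median of 0.00386. Of 30 components of Toll-like receptor signalling, 2 were larger in null cells, Tlr2 and Tlr9, and 1 in C57BL/6 cells, the lipopolysaccharide co-receptor Ly96, with a median of -0.07.

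**Figure D4:**
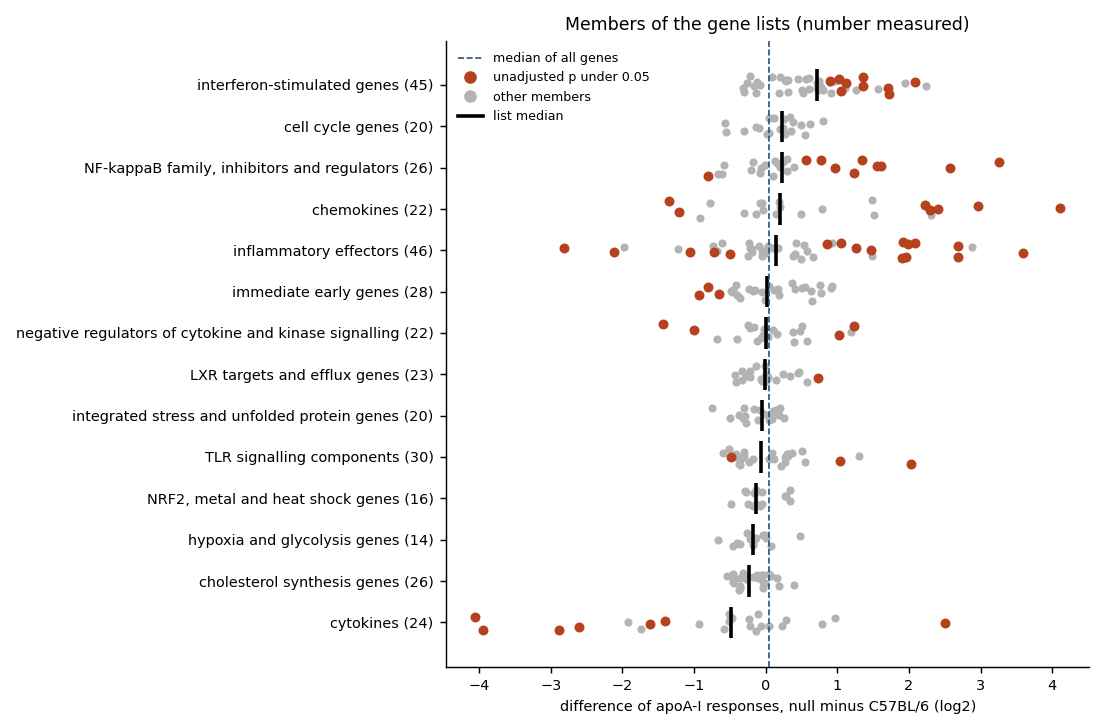
Difference of responses (null minus C57BL/6, log2) of every measured member of 14 gene lists, with members at an unadjusted p under 0.05 in red, the list median as a black bar and the median of all genes as a dashed line. Cytokines reach from -4.05 to 2.50 with a median of -0.49, and interferon-stimulated genes have the highest median at 0.71.

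Some of the 10 largest differences in null cells belonged to genes with uneven replicates. Plg, which encodes plasminogen, had a difference of 5.54 (SE 1.78, adjusted p = 0.64), with 6.55, 1.62 and 8.45 by replicate, and a level of 2.27 on C57BL/6 control replicate 3 against -2.01 and -2.88 on the other 2. Abat, a GABA-degrading enzyme, had a difference of 4.37 (SE 1.95, adjusted p = 0.685) and levels of 4.38 on C57BL/6 control replicate 3 and 4.54 on null apoA-I replicate 1, the arrays that stood apart. A second Abat probe gave -0.03. Of the 69 named genes, 22 had 26 further probes in all, of which 25 had the sign of the probe used, the Abat probe being the exception. A shared sign does not mean a similar size. The second probe gave 0.16 for Zfp317, against 3.76, and -0.04 for Mapkbp1, against -0.83.

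The Myd88 probe (mm7 chromosome 9, 119016408 to 119016467) was lower in null cells in each replicate under both treatments, with control differences of -1.61, -1.39 and -1.56 and treated differences of -1.42, -1.04 and -0.98 (adjusted p = 0.00396 and 0.0244, or 0.215 and 0.941 without the block). Where the deletion lies relative to the probe is not given in the labels, so this does not test them. All 10 macrophage markers were measured, and their summed linear level was 580 to 943 times the 75th percentile in C57BL/6 samples and 646 to 1299 in null samples. Mast cell markers, 7 of 7 measured, summed to 6.22 to 10.3 in C57BL/6 samples and 3.40 to 5.97 in null samples, and B cell markers, 7 of 7, to 23.3 to 36.1 and 18.2 to 24.2. Resident peritoneal macrophage markers, 4 of 6, summed to 8.06 to 10.5 and 3.94 to 6.82. Over all 11 marker lists, 2 genes had an unadjusted p under 0.05 for the difference of responses, Lck at 0.62 and Mpo at 1.18. The part of these cells in the genotype differences was not tested, and fewer cells of a type and less RNA per cell cannot be told apart in bulk RNA. Replicate 3 of every group, and no other sample, was scanned on day 3. Scan day 2 held only null apoA-I replicate 1 and null control replicate 2, on the same slide, and no C57BL/6 array. In replicate numbers 1 and 2 a null array was thus scanned on another day than its partners. The replicate block does not take out that difference of day. Within scan day 1 (2, 2, 1 and 1 samples of the 4 groups) 65 of the 69 named genes had the same sign of difference as over all arrays. The naming rule had already used the sign within each replicate, so this is no independent check, and day 3 holds replicate 3 alone. The free-text descriptions of C57BL/6 control replicate 2 and null apoA-I replicate 2 disagree with their titles and source names on whether apoA-I was added, and the latter were followed. With the treatment taken from the descriptions, 660 genes had an unadjusted p under 0.05 in place of 1232. The control-level and treated-level classes then held 56 and 75 genes larger in null cells, and 9 and 17 larger in C57BL/6 cells. Without these 2 samples 697 genes had such a p, and the classes held 146, 97, 14 and 42. The adjusted threshold was passed by 0 genes either way.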

How the data were processed

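Per the labels, 500 ng of total RNA per sample was labelled with Cy3 and hybridised to one-colour Agilent arrays, read with Agilent Feature Extraction, whose version is 9.5 according to the submitters' processing notes and 9.5.1.1 or 9.5.3.1 by array in the headers. The deposited intensity of a spot is background-corrected, per the file headers, and was found unscaled between arrays. The deposited processed table holds log10 values, a scale read from its match to the log10 intensities (correlations of 0.993 to 1.00 across spots). Its normalization was not stated in the sources used. Its columns, with medians of 1.8225 to 1.8676, served as an alternative only.

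From the intensities, log2 values minus each array's 75th percentile were computed for 41174 non-control probes, without outlier spots. Probes well above background on all arrays of a group were kept (24337), and the brightest probe of a gene was used (16733 genes). Names came from RefSeq genes of assembly GRCm38.p6, where 8437 probes kept the file's name. Probe coordinates are those of the files (mm7), without exon annotation. limma 3.58.1 (R 4.3.3) fitted 4 group means and the replicate number as a block to all 12 arrays (6 residual and 2.45 prior degrees of freedom), with Benjamini-Hochberg adjustment over all genes. The series' design text gives 3 experiments of 4 samples. Deviations from the group means correlated at 0.296 to 0.859 over 18 same-numbered pairs, and at -0.812 to 0.547 (median -0.399) over 36 other pairs. Deviations within a group sum to 0, so positive values in same-numbered pairs force negative ones elsewhere. Replicate 3 also had a scan day of its own. The value of 0.547 was between C57BL/6 apoA-I replicate 2 and null control replicate 1. These correlations therefore cannot decide whether replicate numbers 1 and 2 mark pairs. The fit was tested on simulated data. These were drawn with the replicate block built in, so that test cannot show whether the numbers mark pairs.

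The members and lists were chosen with earlier results of these data known. Named genes are the 10 largest differences and, added after no gene passed, the 15 lowest p-values per direction, whose 3 differences share a sign, up to 5 per level class and up to 5 members per list at an unadjusted p under 0.05 (list members need not share a sign). Genes without a symbol were not named, and 2 genes that met the rule are not reported here. Where no array of a group was well above background, folds are bounds against the lowest signal above background. With 3 arrays per group, precision is limited throughout.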

Additional observations from a re-analysis of the deposited data

Results flagged for a closer look

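For 16 of the 69 named genes, the 3 C57BL/6 responses to apoA-I had one sign and the 3 null responses the other, as they had in 528 of 16733 genes (3.16%). The naming rule chose genes by their difference of responses, which favours opposite responses, so these 2 shares cannot be compared. None of the 16 passed limma's adjusted threshold for the difference of responses, which is the test of this contrast. The response was down in C57BL/6 cells and up in null cells for Plg (difference 5.54), Abat (4.37), Tead4 (3.64), Olfr1221 (3.16), Olfr368 (2.36), Olfr1487 (2.19), Tal2 (2.04), Paqr8 (1.27) and Tlr9 (1.04). Plg and Abat were high on C57BL/6 control replicate 3, with levels of 2.27 and 4.38. In replicates 1, 2 and 3 the C57BL/6 responses were -0.04, -0.07 and -4.27 for Abat and -0.08, -0.09 and -3.91 for Tead4. The fall of these genes thus lay mostly in replicate 3. Some responses of other genes in this set were near 0 as well, such as -0.02 for Ksr1 in null replicate 3. The response was up in C57BL/6 cells and down in null cells for Ksr1 (-2.23), Tnfrsf12a (-0.95), Gadd45a (-0.93), Sat1 (-0.89), Ier5 (-0.65), St8sia4 (-0.61) and Ly96 (-0.48). Tnfrsf12a, the receptor of the cytokine TWEAK, is the only one of the 7 whose fall in null cells passed on its own (log2 -0.66, adjusted p = 0.0321, or 0.329 without the replicate block), while its C57BL/6 response was 0.29 (adjusted p = 0.337).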

How the results depend on the processing

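Without the replicate block, 0 genes passed, as with it, and the control-level and treated-level classes held 53 and 26 genes larger in null cells and 7 and 9 larger in C57BL/6 cells, against 256, 134, 31 and 69. Genotype and response calls lost without the pairing by replicate number are given beside the results. The number of genes passing was 2 with the slide as a random block, 3 with normexp, 6 with median scaling, 3 with quantile normalization, 1 among genes above background on all arrays and, chosen after seeing the data, 5 with a common floor. Leaving out single samples or replicate numbers gave 0 to 1: 1 each without C57BL/6 apoA-I replicate 3 (Cxcl11, adjusted p = 0.0476), null control replicate 1 or null control replicate 2 (Nfkbie, 0.0275). Over its alternatives, the adjusted p ran from 0.00617 to 0.987 for Nfkbie, 0.0476 to 0.987 for Cxcl11, 0.000416 to 0.987 for Il6 and 0.00483 to 0.987 for Il12b. Of 2046 values of single named genes under the alternatives, 2025 kept direction and side of the threshold, 19 kept direction and passed it, and Cxcl2 changed sign in 2, at -0.635 with normexp and -0.112 with a common floor; the cause was not tested. The control-level count larger in null cells was 407 at a factor of 1.5, 163 at a factor of 3 and 144 with a common floor, and the treated-level count larger in null cells 89 at a factor of 3. Leaving out single samples moved the classes larger in null cells over 174 to 572 (control-level) and 78 to 355 (treated-level), and those larger in C57BL/6 cells over 12 to 80 and 35 to 192, with the highest values without C57BL/6 control replicate 1 for control-level and without null apoA-I replicate 3 for treated-level genes. With quantile normalization, list medians relative to all genes moved by more than the spread between replicates for cytokines (-0.745, from -0.539), NF-kappaB genes (0.293, from 0.172), LXR targets (0.0436, from -0.06), integrated stress genes (0.0819, from -0.102), NRF2 genes (0.00934, from -0.19) and hypoxia genes (-0.122, from -0.23). Under other settings the counts moved by over 1.5 times as follows. Control-level genes larger in null cells numbered 150 with quantile normalization, 146 with the deposited processed values, and 551 and 125 without replicate numbers 1 and 2. Treated-level genes larger in null cells numbered 86 with scan day as the block, 61 with normexp, 65 with median scaling, 292 without a filter on dim probes, and 49 and 310 without replicate numbers 1 and 3. Control-level genes larger in C57BL/6 cells numbered 58 with scan day, 58 with median scaling, 47 with the deposited values, 57 over every probe and 15 without replicate number 3. Treated-level genes larger in C57BL/6 cells numbered 36 with scan day, 122 with median scaling, 112 with quantile normalization, 135 with the deposited values, 115 over every probe, and 26 and 42 without replicate numbers 2 and 3. Probes within background limit every value that includes a dim control group.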

Other observations

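Some named genes outside the groups above added to the same layouts. Ptgs2, the inducible cyclooxygenase, had levels of 2.78, 2.89 and 2.49 in C57BL/6 cells with apoA-I and -2.45, -0.65 and -1.15 in null cells with apoA-I, which did not overlap, but its treated difference of -4.13 did not pass (adjusted p = 0.099). It rose in both genotypes, 81.2-fold and 20.7-fold (adjusted p = 0.00372 and 0.0177), the latter against null controls well above background on 1 of 3 arrays, and its difference of responses was -1.97 (SE 1.07). Thbs1, the matrix protein thrombospondin 1, rose 3.26-fold in C57BL/6 cells (adjusted p = 0.014, or 0.224 without the replicate block), and its null response was 0.26 (adjusted p = 0.574). Enc1, an actin-binding protein, rose by 1.31 in C57BL/6 cells (adjusted p = 0.00249, or 0.125 without the replicate block), and its null response was 0.23 (adjusted p = 0.352). Htra4, a secreted serine protease, rose at least 5.66-fold in C57BL/6 cells (adjusted p = 0.00249), and its null response was 1.82 (adjusted p = 0.0581).

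Gpr84, a receptor for medium-chain fatty acids, was 18.6-fold lower in null controls (adjusted p = 0.0422, or 0.16 without the replicate block), where 1 of 3 arrays was well above background, and had a difference of responses of 2.69 (SE 0.982). Among inhibitors of kinase signalling, Spred1 had a difference of 1.03 and the phosphatase gene Dusp4 of 1.23, opposite in direction to Spry1 and Cish. Both were control-level on the probes used. Further Spred1 probes gave differences of 0.63 and 0.47 (limma, unadjusted p = 0.17 and 0.126). Their control differences were -1.47 and -1.22 and their treated differences -0.84 and -0.76, which is both-level. The interferon-inducible GTPase genes Gbp6 and Iigp1 were control-level at 1.71 and 1.36. By size alone, Ott (3.85), Zfp317 (3.76) and Srcin1 (3.46) stood among the 10 largest differences in null cells, at unadjusted p-values of 0.0234, 0.0663 and 0.0817, and Dao (-2.39) among the 10 largest in C57BL/6 cells. A second Zfp317 probe gave 0.16, and a second Srcin1 probe 1.55.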
